A study of Mus musculus with 2 samples.

Results

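Chemokines and their receptors were examined in whole kidney RNA of mice with an inherited cystic kidney disease and of control mice. The members were the probe sets that name a single gene whose symbol on the platform is that of a chemokine (Ccl, Cxcl, Cx3cl1, Xcl1) or of a classical chemokine receptor (Ccr, Cxcr, Cx3cr1, Xcr1), followed by a number where the family is numbered. This gave 76 probe sets for 48 genes, 32 ligands and 16 receptors, of 18193 genes named on the array. Chemokines are small secreted or membrane-anchored proteins that guide the movement of leukocytes. They are named by the spacing of their first cysteines (CC, CXC, CX3C and XC) and act through receptors that span the membrane several times and signal through inhibitory G proteins. In an inflamed kidney they are known to be made by tubular, endothelial and stromal cells as well as by the leukocytes that arrive.

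The cystic sample came from inv/inv mice, a model of nephronophthisis type 2, homozygous for a mutation of Invs, which encodes the ciliary protein inversin, and carrying the inv-deltaC::GFP transgene for inversin without its C-terminus. The control sample came from +/+ mice with normal Invs alleles and the same transgene, so the transgene is common to both groups; its promoter was not given in the sources used here. By the series design the mice were 4 weeks old, and only the cystic array carries labels for sex (female) and age (28 days). Each group was measured on 1 Affymetrix array, and it is not clear from the labels how many kidneys or animals gave its RNA.

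With 1 array per group there is no replicate check of any difference, and no p-value is given. The values are linear MAS5 signals, an intensity with no unit. Each array's median signal, 61.9 on the cystic array, against 55.4 on the control array, was used as its floor, and a probe set whose 2 signals both lay below these floors was called near background. A signal below its floor on one array alone was set to that floor, and the ratio is then a bound, given as "at least". The brightest probe set stood for a gene, log2 ratios are cystic minus control, and a gene was counted as higher or lower at a 2-fold difference. The only repeat measurement is that by different probe sets of a gene on the same arrays, whose log2 ratios had a pooled SD of 0.29 over 4694 genes, and of 0.32 over the 2494 genes whose dimmest probe set had a mean signal under 150. All 9 kidney tubule markers were measured, among them Umod, with a signal of 8160 on the cystic array, against 8713 on the control array, so both samples read as kidney.

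Of the 48 genes, 26 were measured on at least 1 array and 22 were near background on both. Among the 26, 9 passed 2-fold upwards in the cystic kidney (34.6%) and 0 passed it downwards, beside 7.06% higher and 3.78% lower of the 12015 genes measured on the arrays. Of all genes past 2-fold, 65.1% were higher in the cystic kidney, and 47.5% with each array centred on its median. The 9 were the ligands Ccl6, Ccl8, Ccl9, Ccl12, Cxcl1, Cxcl16 and Cx3cl1 and the receptors Cx3cr1 and Cxcr4. The genes measured on the cystic array alone, 11 of the 26, entered because their cystic signal was the higher one, so the share is a description of these arrays. They were 11 of the 48 members, beside 3.69% of all 18193 genes. A gene could be counted as lower only where its control signal was at least 2-fold above the cystic floor of 61.9. The count of 0 lower therefore says nothing of falls in the dimmer members. Of the 13 genes that both arrays measured, 7 were higher, beside 6.15% of the 10668 such genes on the arrays, and their median log2 ratio was 1.24, beside 0.08. Counted by probe set, 16 of the 37 measured were at least 2-fold higher, beside 6.19% of all measured probe sets that name 1 gene. Over all 26 genes the median log2 ratio was 0.59, beside 0.09 over all genes measured. These medians are not alike, because 11 of the 26 values are bounds and 2 more, for Ccr4 and Ccr6, have no direction. Of the 12015 genes, 10668 were above both floors. Fewer cells of a type and less RNA per cell cannot be told apart in RNA of a whole kidney.

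**Figure D1:**
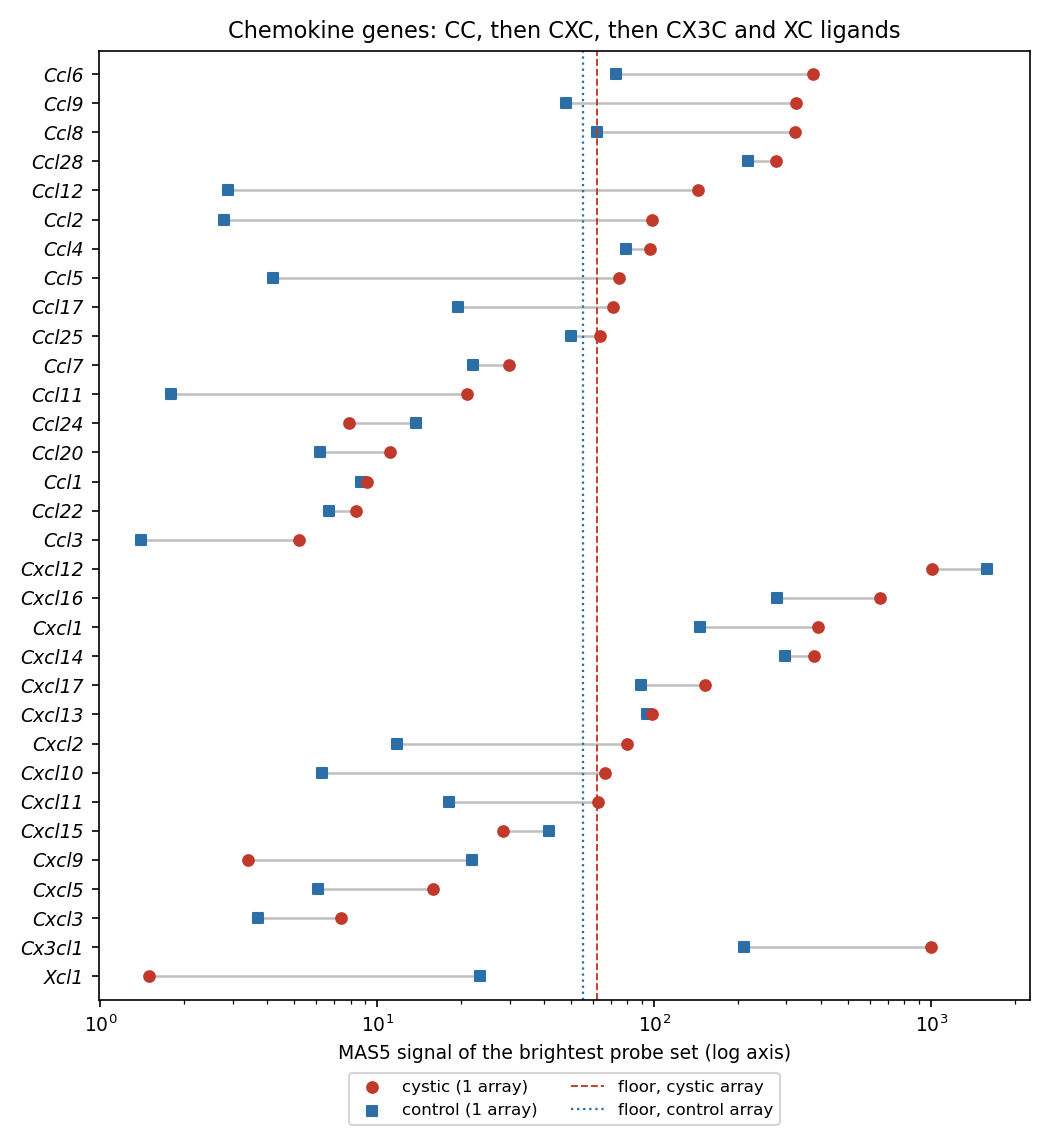
MAS5 signal (log axis) of the brightest probe set of each of the 32 chemokine genes on the cystic array (circles) and the control array (squares), with the floors of the arrays as vertical lines. Most circles right of the floors lie to the right of their square, Cxcl12 is the exception, and 12 genes lie left of both floors.

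The sequences before the start of 5 of these genes are shown. Cxcl1, Cxcl2 and Cxcl3 were chosen because they lie in the same gene cluster and share a stretch of promoter. Cxcl10 and Ccl9 were chosen because they hold further letters that match the motifs searched for. Signals of probe sets of different genes are not compared in size. Bases 130 to 31 before the start are given for Cxcl1 (chr5:90891115-90891214, plus strand), Cxcl2 (chr5:90903769-90903868, plus strand) and Cxcl3 (chr5:90785971-90786070, plus strand), bases 220 to 61 for Cxcl10 (chr5:92348950-92349109, minus strand) and bases 120 to 21 for Ccl9 (chr11:83578657-83578756, minus strand), all from RefSeq on GRCm38.p6. Capitals mark letters that match a motif on either strand. The motifs were those of NF-kappaB (GGG, any 3 bases, then TTCC) and the interferon response (TTTC, any 2 bases, then TTTC). For AP-1 the letters were TGANTCA, the same on both strands, a loose form in which N is any base.
Cxcl1: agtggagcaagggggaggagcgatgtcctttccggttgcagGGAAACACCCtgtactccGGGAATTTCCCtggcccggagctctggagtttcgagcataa
Cxcl2: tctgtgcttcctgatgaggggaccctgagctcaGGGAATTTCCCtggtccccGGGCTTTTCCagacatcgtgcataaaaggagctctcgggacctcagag
Cxcl3: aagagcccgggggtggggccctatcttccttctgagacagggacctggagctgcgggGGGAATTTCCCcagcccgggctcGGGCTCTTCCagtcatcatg
Cxcl10: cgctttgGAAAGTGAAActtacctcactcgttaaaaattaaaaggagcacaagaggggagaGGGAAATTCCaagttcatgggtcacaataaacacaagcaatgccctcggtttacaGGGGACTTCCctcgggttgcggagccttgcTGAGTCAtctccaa
Ccl9: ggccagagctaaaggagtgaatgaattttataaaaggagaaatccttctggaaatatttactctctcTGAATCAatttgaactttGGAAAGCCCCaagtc

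The match GGGAATTTCC stood 71, 97 and 73 bases before the start of Cxcl1, Cxcl2 and Cxcl3, each overlapping a match on the other strand that is shifted by a single base. Promoters of 35 of the 48 genes were in the table, and in the 250 bases before the start 9 of the 35 held the NF-kappaB letters, beside 4.65% of 32851 mouse promoters. The AP-1 letters were held by 4 genes (Cxcl10, Ccl9, Ccr3 and Ccr4), beside 6.75%, and the interferon response letters by 2 (Cxcl10 and Cxcl14), beside 2.98%. The genes with the NF-kappaB letters fell into several classes of call, which depend on the floors as well as on any difference. A role of these letters in the signals was not tested. Cxcl1 and Ccl9 were at least 2-fold higher, Cxcl2 and Cxcl10 were measured on the cystic array alone, Ccr6 gave no direction, and Cxcl3, Ccl1, Ccl20 and Ccr3 were near background. Of the 9 higher genes, 8 had a promoter in the table and 2 of those held the letters.

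The CC ligands include the monocyte attractants that act through Ccr2 and a pair of myeloid chemokines, Ccl6 and Ccl9, that act through Ccr1 and are found in rodents. Of 17 CC ligand genes, 10 were measured, 4 were at least 2-fold higher and 7 were near background. Ccl6 had a signal of 374.0 on the cystic array, against 72.9 on the control array, a 5.13-fold difference (log2 ratio 2.36). Its second probe set read 162.7 on the cystic array, against 42.3 on the control array, at least 2.94-fold higher (1.55). Ccl9 had 325.6 on the cystic array, against 48 on the control array, at least 5.88-fold higher (2.56), and 191.2 (cystic) and 18.1 (control) at its second probe set, at least 3.45-fold higher (1.79). Both genes were thus past 2-fold at both of their probe sets, and all of these values except the first of Ccl6 are bounds.

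Ccl8, which in the mouse acts through Ccr8, had 323.0 on the cystic array, against 62.3 on the control array, a 5.18-fold difference (2.37). By log2 ratio it ranked 49th of the 10668 genes that both arrays measured, next to Ccl6 at 50. Its control signal lay only a little above the floor. Ccl12, a mouse ligand of Ccr2, had 143.7 on the cystic array, against 2.9 on the control array, at least 2.59-fold higher (1.38), a bound that fell under the limit with loess (0.74) and with a floor at the 60th percentile (0.71). Ccl2, monocyte chemoattractant protein 1, had 98 on the cystic array, against 2.8 on the control array, which gave a bound of at least 1.77-fold (0.82) and no call. Ccl2 and Ccl12 were therefore above background in the cystic kidney only, and the size of either difference is set by the floor.

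The T cell attractant Ccl5 had 74.8 on the cystic array, against 4.2 on the control array, at least 1.35-fold higher (0.43). Ccl17, a ligand of Ccr4, had 70.7 on the cystic array, against 19.5 on the control array, at least 1.28-fold higher (0.35). Ccl25, known for guiding lymphocytes to thymus and gut, had 63.9 on the cystic array, against 50.1 on the control array at its brighter probe set and was near background at the other. These cystic signals lay close to the floor and none reached the 2-fold limit. Ccl4 had 96.6 on the cystic array, against 79.0 on the control array, a 1.22-fold difference (0.29). Ccl28, a chemokine of mucosal epithelia, had 274.5 on the cystic array, against 217.6 on the control array (0.34) and was near background at its other probe sets. The differences of Ccl4 and Ccl28 were about the size of the spread between probe sets.

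The CC ligands near background on both arrays were Ccl1, Ccl3, Ccl7, Ccl11, Ccl20, Ccl22 and Ccl24. Ccl7, a further ligand of Ccr2, had 29.9 on the cystic array, against 22.1 on the control array. Ccl11, an attractant of eosinophils, had 21.1 on the cystic array, against 1.8 on the control array, which gave no ratio because both lay under the floors. Ccl3 had 5.2 on the cystic array, against 1.4 on the control array.

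The CXC ligands comprise attractants of neutrophils (Cxcl1, Cxcl2, Cxcl3, Cxcl5), ligands of Cxcr3 that are induced by interferon (Cxcl9, Cxcl10, Cxcl11) and constitutive chemokines such as Cxcl12. Of 13 genes, 9 were measured, 2 were at least 2-fold higher and 4 were near background. Cxcl1 was read by 3 probe sets, all past 2-fold. The brightest, whose identifier marks probes shared with other transcripts, had 390.5 on the cystic array, against 145.7 on the control array, a 2.68-fold difference (1.42). The second, also marked as shared, had 390.2 (cystic) and 83.6 (control), a 4.67-fold difference (2.22), and the third, which is not so marked, had 444.1 (cystic) and 17.0 (control), at least 8.02-fold higher (3.0). Without the probe sets marked as shared Cxcl1 thus stood at a bound of at least 3.0 in place of 1.42.

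Of the other ligands of Cxcr2, Cxcl2 had 79.4 on the cystic array, against 11.8 on the control array, at least 1.43-fold higher (0.52). Cxcl3 had 7.4 on the cystic array, against 3.7 on the control array, and Cxcl5 had 15.9 (cystic) and 6.1 (control), all under the floors. Cxcl1, Cxcl2 and Cxcl3, whose promoters are printed above, thus held a called difference, a bound and a gene near background. Cxcl10 had 66.2 on the cystic array, against 6.3 on the control array, at least 1.19-fold higher (0.26). Cxcl11, which the RefSeq table lists as a transcribed pseudogene, had 62.8 on the cystic array, against 18.2 on the control array, at least 1.13-fold higher (0.18). Cxcl9 was near background at both probe sets. The ligands of Cxcr3 therefore reached at most a little over the floor in the cystic kidney.

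Cxcl16, a membrane-anchored chemokine that also binds oxidised lipoprotein, had 655.5 on the cystic array, against 278.2 on the control array, a 2.36-fold difference (1.24). Its second probe set read 362.5 on the cystic array, against 130.7 on the control array, a 2.77-fold difference (1.47), so the probe sets differed by 0.24, less than the SD between probe sets. Cxcl14, a chemokine of epithelia, had 377.2 on the cystic array, against 297.4 on the control array at its brightest probe set (0.34) and 386.7 (cystic) and 100.7 (control) at the other (1.94). Only the other probe set put Cxcl14 past 2-fold, and the gene was not counted. Cxcl17, a mucosal chemokine, had 152.1 on the cystic array, against 89.8 on the control array, a 1.69-fold difference (0.76).

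Cxcl12, which holds stem cells and leukocytes in place through Cxcr4, was the only one of the 13 genes measured on both arrays whose log2 ratio was below 0 as deposited, Cxcl13 joining it under 3 other scalings. It had 1008 on the cystic array, against 1595 on the control array (-0.66), and 1029 (cystic) and 1132 (control) at its second probe set (-0.14). The third probe set read 45.4 on the cystic array, against 59.3 on the control array and gave no direction. The difference was under the 2-fold limit at all 3. Cxcl13, a B cell attractant, had 97.8 on the cystic array, against 94.3 on the control array (0.05), a value that turned to -0.11 with each array centred on its median, -0.15 with quantile normalization and -0.11 with loess. Cxcl15, known in the mouse as lungkine, was near background.

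Cx3cl1, or fractalkine, is anchored in the membrane of endothelial and epithelial cells and binds Cx3cr1 on monocytes and macrophages. It had 1000 on the cystic array, against 210.8 on the control array, a 4.74-fold difference (2.25), and ranked 58th of 10668 genes. The second probe set read 500.3 on the cystic array, against 199.7 on the control array, a 2.51-fold difference (1.32). The other probe sets of Cx3cl1 were near background, one of them with 58.7 on the cystic array, against 9.1 on the control array. Xcl1, the attractant of dendritic cells that carry Xcr1, had 1.5 on the cystic array, against 23.5 on the control array, both under the floors.

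**Figure D2:**
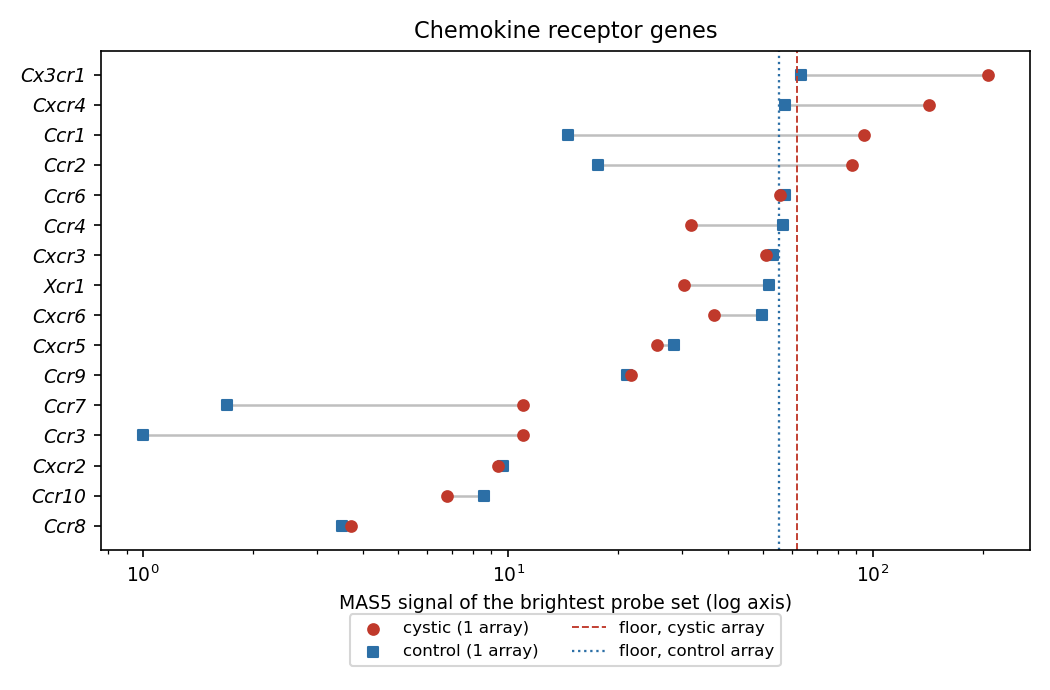
MAS5 signal (log axis) of the brightest probe set of each of the 16 chemokine receptor genes on the cystic array (circles) and the control array (squares), with the floors of the arrays as vertical lines. Cx3cr1, Cxcr4, Ccr1 and Ccr2 are right of the floors on the cystic array, and the circles of the other 12 lie left of the floor of the cystic array.

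Receptors were fewer among the measured genes, with 6 of 16 measured, 2 at least 2-fold higher and 10 near background. Cx3cr1 had 205.9 on the cystic array, against 63.6 on the control array, a 3.24-fold difference (1.69). Its second probe set read 95.8 on the cystic array, against 31.8 on the control array, at least 1.73-fold higher (0.79), a bound under the limit. Cxcr4, carried by most leukocytes and by many other cells, had 142.6 on the cystic array, against 57.5 on the control array, a 2.48-fold difference (1.31), which became a bound of 0.70 with a floor at the 60th percentile. The control signals of both receptors were within 10 units of the floor.

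Ccr1, a receptor of monocytes and neutrophils, had 94.6 on the cystic array, against 14.6 on the control array, at least 1.71-fold higher (0.77), and was near background at its other probe set. Ccr2, the receptor of inflammatory monocytes, was read by 4 probe sets, of which 2 were measured. They had 87.7 on the cystic array, against 17.6 on the control array, at least 1.58-fold higher (0.66), and 71.9 (cystic) and 47.2 (control), at least 1.30-fold higher (0.38). The remaining Ccr2 probe sets were near background, with 49.5 and 14.0 on the cystic array, against 3.5 and 28.3 on the control array. Ccr1 and Ccr2 were thus above background on the cystic array alone, and no bound of either gene passed 2-fold.

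Ccr4 had 31.7 on the cystic array, against 56.7 on the control array, and Ccr6, a receptor of lymphocytes, had 55.7 (cystic) and 57.3 (control). Each control signal lay between the floors of the arrays, so no direction was read. The receptors near background were Ccr3, Ccr7, Ccr8, Ccr9, Ccr10, Cxcr2, Cxcr3, Cxcr5, Cxcr6 and Xcr1. They include Cxcr2, the main receptor of neutrophils for Cxcl1, with 9.4 on the cystic array, against 9.7 on the control array, and Cxcr6, the receptor of Cxcl16, with 36.6 (cystic) and 49.6 (control). Ccr8 had 3.7 on the cystic array, against 3.5 on the control array. Several higher ligands, Cxcl1, Cxcl16 and Ccl8, thus had a receptor that was near background on both arrays, while Cx3cl1 and Cx3cr1 were higher together.

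Taken receptor by receptor, with pairings known from the literature, 1 of the 3 ligands listed for Ccr2 was at least 2-fold higher (Ccl12), as were 2 of 5 for Ccr1 (Ccl6 and Ccl9), 1 of 4 for Cxcr2 (Cxcl1), 1 of 2 for Ccr8 (Ccl8), and the ligand of Cx3cr1 and that of Cxcr6. None of the 3 ligands of Cxcr3, the 3 of Ccr3 and the 2 of Ccr4 was counted as higher. For Cxcr4 the receptor was higher and its ligand Cxcl12 was not.

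The 22 genes near background comprised 12 ligands and 10 receptors, read by 29 probe sets. Their signals spanned 1.0 to 50.8, with a median of 11.1, on the cystic array and 1.0 to 53.1, with a median of 8.7, on the control array. Over all genes, 34.0% had every probe set near background, beside the 22 of 48 here. Of all 76 member probe sets, 39 were near background, beside 39.7% of the 34945 probe sets that name 1 gene. Within those 39 the cystic signal was the higher one in 21, beside 51.3% over all such probe sets, so no direction showed among them. Over all 76 it was the higher one in 53, beside 54.8%. No detection call was used here, and near background does not mean that a transcript was absent.

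**Figure D3:**
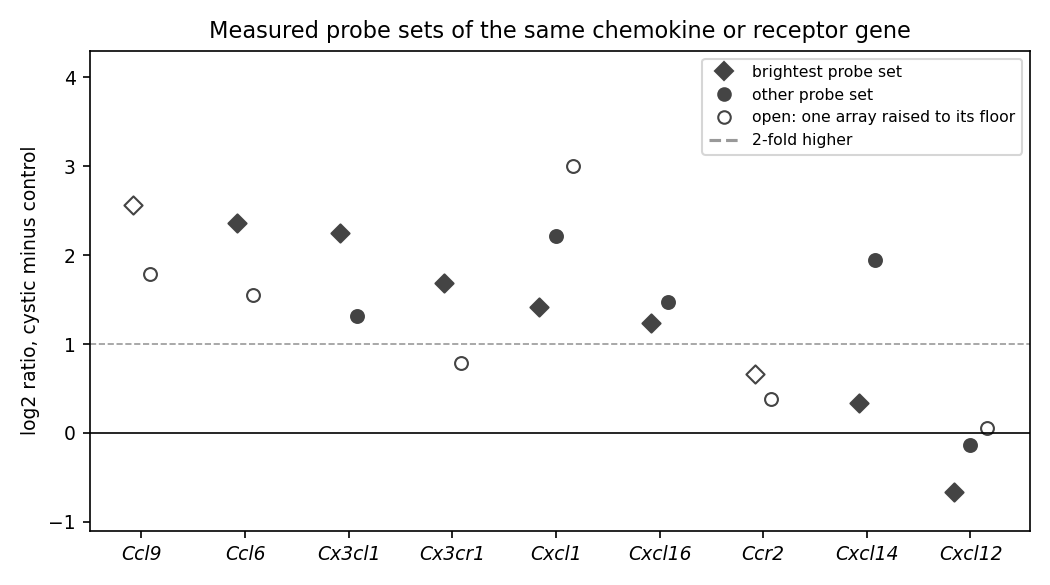
Log2 ratio (cystic minus control) of every measured probe set of the 9 genes with more than 1, with the brightest as a diamond and values with one array raised to its floor as open symbols. Ccl9, Ccl6, Cx3cl1, Cxcl1 and Cxcl16 lie above the 2-fold line at all of their measured probe sets, while Cx3cr1, whose lower value is a bound, and Cxcl14 have values on both sides of it.

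Of the 9 genes with more than 1 measured probe set, 5 (Cx3cl1, Cxcl1, Cxcl12, Cxcl14 and Cxcl16) had 2 probe sets above the floor on both arrays, so that neither ratio was a bound. Both ratios had the same sign in 5 of 5. They lay 1.60 apart for Cxcl14, 0.92 for Cx3cl1, 0.80 for Cxcl1, 0.52 for Cxcl12 and 0.24 for Cxcl16 on the log2 scale, and 3 of the 5 distances exceeded 0.59, which is 2 times the SD between probe sets. For Ccl6, Ccl9, Ccr2 and Cx3cr1 at least 1 probe set gave only a bound, whose sign the floor fixes, so no distance is given. Ccl8, Ccl12 and Cxcr4 were each read by a single probe set and have no such repeat.

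**Figure D4:**
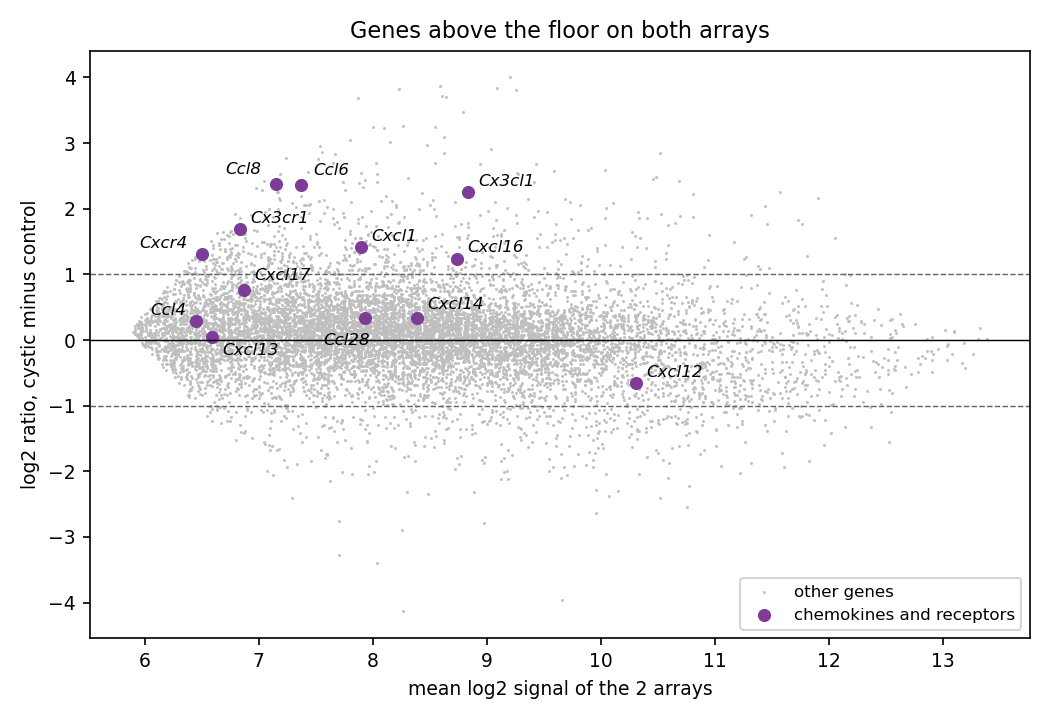
Log2 ratio (cystic minus control) against mean log2 signal for genes above the floor on both arrays, with the 13 chemokine and receptor genes in purple and 2-fold differences as dashed lines. Of the members, 7 lie above the upper line and Cxcl12 is the only one below 0 (with median centring, quantile normalization or loess, Cxcl13 too).

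Many of these genes are copies that lie side by side, and the 2-fold calls did not cover any such cluster as a whole. Neighbours near background or given as a bound can miss the call through a dim signal. Unlike differences within a cluster are therefore not shown. In the RefSeq order of GRCm38.p6, taking starts less than 200 kb apart as one cluster, Ccl2, Ccl7, Ccl11, Ccl12, Ccl8 and Ccl1 follow each other, and 2 of the 6 (Ccl12 and Ccl8) were higher. In the cluster of Ccl5, Ccl9, Ccl6, Ccl3 and Ccl4 it was 2 of 5, the adjacent members Ccl9 and Ccl6. Among Cxcl5, Cxcl3, Cxcl15, Cxcl1 and Cxcl2 it was 1 of 5, among Ccl22, Cx3cl1 and Ccl17 1 of 3, and among Cxcl9, Cxcl10 and Cxcl11 none of 3. Of the receptor cluster of Ccr9, Cxcr6, Xcr1, Ccr1, Ccr3 and Ccr2 none of 6 was counted, and only Ccr1 and Ccr2 were measured.

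Other genes of the chemokine system came from lists drawn up with earlier results of these arrays known. Their counts stand beside 7.06% higher and 3.78% lower of the 12015 genes measured, and their medians beside 0.09. Atypical receptors, which bind chemokines without G protein signalling, were listed with related genes outside the naming rule, not all of them ligands. Of these, 11 of 16 were measured, 3 were at least 2-fold higher and 0 lower (median log2 ratio 0.42). The 3 were Pf4, a CXC chemokine of platelets and macrophages, with 385.5 on the cystic array, against 88.7 on the control array (2.12), Cmtm3 (411.8 cystic, 112.4 control, 1.87) and Rarres2, the precursor of chemerin (341.9 cystic, 161.3 control, 1.08). Cklf had a log2 ratio of 0.92. Ackr3, which takes up Cxcl12, had 1051 on the cystic array, against 952.4 on the control array (0.14). Ackr1, Ackr2 and Ackr4 had log2 ratios of 0.42, 0.12 and 0.11, so none of the atypical receptors named Ackr reached 2-fold.

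Of the genes of signalling below chemokine receptors, 36 of 45 were measured, 7 were at least 2-fold higher and 0 lower, with a median of 0.47. Over all genes measured, 7.06% were higher and 3.78% lower, with a median of 0.09. The count of 7 became 4 with median centring, quantile normalization, loess or the median over probe sets, and the first 3 of these gave 1 lower gene. The share of all measured genes counted as higher was 5.07%, 5.54%, 5.67% and 6.18% under these settings. Rac2, a small GTPase of blood cells, had 219.3 on the cystic array, against 78.0 on the control array (1.49). The receptor kinase Grk5 (1.49), the arrestin Arrb2 (1.36) and the actin regulator Wipf1 (1.28) followed. Gnai2, the inhibitory G protein subunit that leukocytes use, had 2044 on the cystic array, against 1380 on the control array (0.57).

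Of genes that induce chemokine transcription, 26 of 34 were measured, 8 were at least 2-fold higher and 0 lower, with a median of 0.75. Over all genes measured, 7.06% were higher and 3.78% lower. The count of 8 became 5 with median centring, loess or the floor at the 60th percentile. Under these settings 5.07%, 5.67% and 6.06% of all measured genes were counted as higher. The AP-1 subunit Fos had 512.4 on the cystic array, against 79.1 on the control array (2.70), and Nfkbiz, an inducible cofactor of NF-kappaB, had 542.8 (cystic) and 107.7 (control) (2.33). Nfkb2, a subunit of NF-kappaB, was at least 3.16-fold higher (1.66) and the stress-induced factor Atf3 2.76-fold (1.46). Among the cytokines, Tnf, Il1a, Il6, Ifng and Ifnb1 were near background, and Il1b had 86.2 on the cystic array, against 59.5 on the control array (0.53), while Il17a had 66.0 on the cystic array, against 86.2 on the control array (-0.39). Of proteases and binding proteins that act on chemokines, 15 of 20 were measured, 4 were at least 2-fold higher and 0 lower (median 0.31). They were cathepsin S, Ctss (2.68), the membrane protease Mmp14 (2.24), the heparan sulfate carrier Sdc1 (1.96) and Mmp2 (1.39). Dpp4, which trims the amino end of many chemokines, had 503.4 on the cystic array, against 795.7 on the control array (-0.66).

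**Figure D5:**
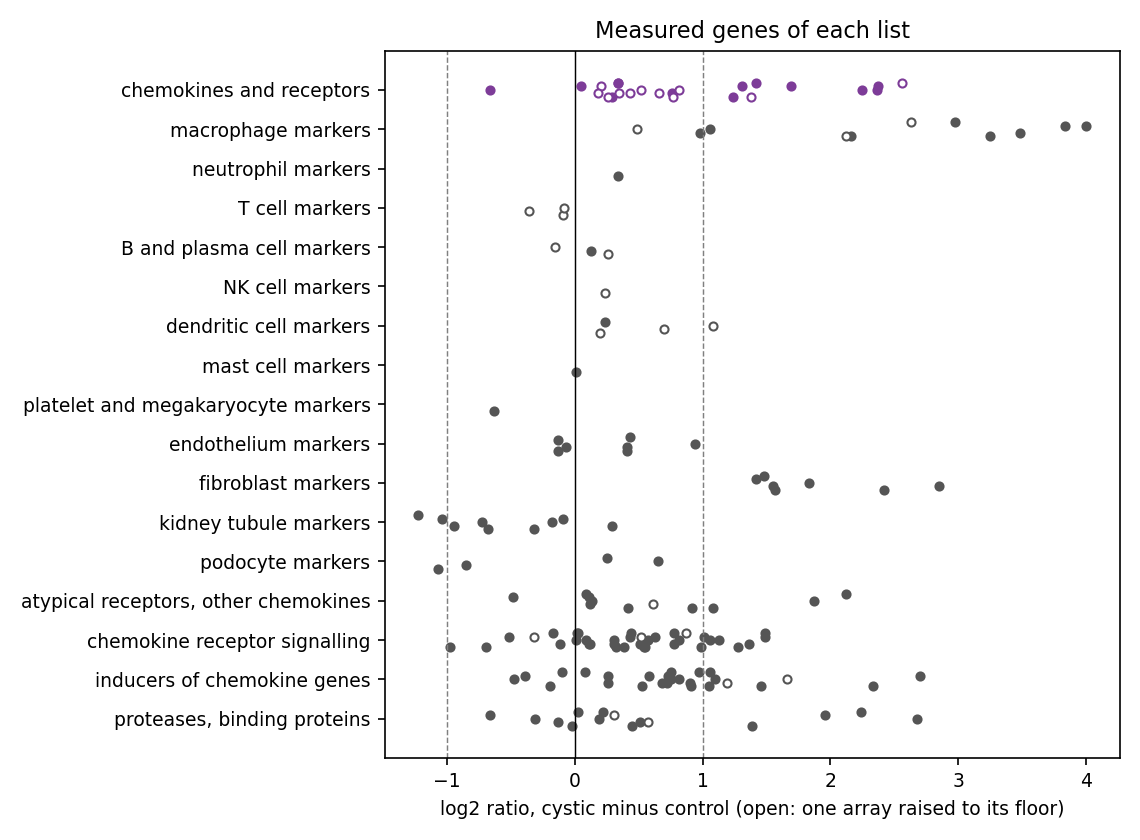
Log2 ratio (cystic minus control) of each measured gene of the chemokine and receptor set (purple) and of the lists of cell markers and chemokine pathway genes (grey), with values resting on a floor as open symbols, 2-fold differences as dashed lines and genes without a readable direction left out. Macrophage and fibroblast markers lie mostly or wholly above the upper line, and those of T, B and NK cells lie near 0.

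Most macrophage markers and all fibroblast markers were higher beside the chemokine genes. Over all genes measured, 7.06% were higher and 3.78% lower. Of 12 macrophage markers 11 were measured, 9 were at least 2-fold higher and 0 lower, with a median of 2.63, and their signals summed to 10613 on the cystic array, against 2129 on the control array. Lyz2 (4.00), C1qc (3.83), C1qa (3.48) and Mrc1 (3.25) led them, and Cd163 was near background. All 7 fibroblast markers were higher, with a median of 1.57 and sums of 18389 on the cystic array, against 4578 on the control array, led by Col1a1 (2.85), Acta2 (2.42), Col3a1 (1.83) and Pdgfra (1.57). Of 7 dendritic cell markers 4 were measured and 1 was higher, Itgax (at least 2.12-fold, 1.08), with Flt3 at 0.70, Zbtb46 at 0.24 and Cd209a at 0.20, a list median of 0.47 and sums of 439.7 on the cystic array, against 237.3 on the control array. Itgax lost its call with median centring, quantile normalization, loess and the floor at the 60th percentile. The part of macrophages, fibroblasts or dendritic cells in the chemokine values was not tested.

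Markers of other leukocytes were near background for the most part. Of 10 neutrophil markers, Csf3r (0.34) and Ngp (no direction) were measured, none was past 2-fold, and S100a8, S100a9, Mpo, Elane, Camp, Ltf and Mmp8 were near background, with sums of 321.4 on the cystic array, against 284.2 on the control array. T cell markers were measured in 3 of 10 with a median of -0.09 (bounds of -0.36 for Cd8a, -0.09 for Cd5 and -0.08 for Icos), and Cd3d, Cd3e, Cd3g, Cd4, Cd2 and Cd247 were near background. B and plasma cell markers were measured in 3 of 8 with a median of 0.13 (0.13 for Ighm, and bounds of 0.26 for Cd22 and -0.15 for Pax5). NK cell markers were measured in 2 of 7, with a bound of 0.24 for Prf1 and no direction for Klrk1. Mast cell markers were measured in 1 of 6 (Kit, 0.01), and platelet markers in 3 of 6, where Itga2b had -0.63 and Gp1bb and Treml1 gave no direction. Summed signals of T cell, B cell, NK cell, mast cell and platelet markers were 219.6, 378.1, 186.7, 314.5 and 283.3 on the cystic array, against 317.6, 350.5, 178.6, 332.9 and 325.1 on the control array. No marker in these 6 lists was counted as 2-fold different. For markers near background or given as bounds, a 2-fold difference could be neither called nor excluded.

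Endothelial markers were measured in 7 of 7, with 0 past 2-fold, a median of 0.41 and sums of 3257 on the cystic array, against 2640 on the control array; Eng (0.94), Pecam1 (0.43), Tie1 (0.41) and Cdh5 (0.41) were furthest from 0. Kidney tubule markers had a median of -0.68, with 2 of 9 at least 2-fold lower, Lrp2 (-1.22) and Cubn (-1.04), Slc12a3 at -0.94 and Slc34a1 at -0.72, and sums of 28427 on the cystic array, against 41239 on the control array. Podocyte markers were measured in 4 of 5 with a median of -0.30, of which Nphs1 was lower (-1.07) and Podxl, Synpo and Wt1 had -0.85, 0.65 and 0.25, with sums of 1011 on the cystic array, against 1443 on the control array. The part of these cells in the chemokine values was not tested either.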

How the data were processed

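Total RNA of kidney was measured on 1 array per group, so no test was made. The deposited intensity values were made by the authors with MAS5, per the submitters' processing notes, and are on a linear scale, as their range shows. The MAS5 version, the scaling target and detection calls are not given in the sources used here. Of 45101 probe sets, 64 control probe sets were left out. Of the remaining 45037, 34945 named 1 gene in the platform annotation, 932 several and 9160 none; symbols were updated by gene identifier from RefSeq, GRCm38.p6, which held 34741. The deposited scaling was kept (means after trimming 2% at each end were 181 on the cystic array, against 178 on the control array). Each array's median signal was its floor, and the brightest probe set after flooring stood for a gene. Medians over measured genes, also those of the lists, took in bounds and values without a direction. Every member was named, with values where measured, and the 4 largest differences of each other list; any other gene was picked with its values in view. The members and lists were chosen with earlier results of these data known. Alternatives were 3 scalings, 2 other floors, no floor, the median over probe sets and leaving out probe sets whose identifier carries a letter suffix (such as a, s or x). Steps were tested on simulated data. Computed with Python 3.11.15, numpy 2.4.6, pandas 2.3.3, scipy 1.17.1 and statsmodels 0.14.6.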

Additional observations from a re-analysis of the deposited data

How the results depend on the processing

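The genes Ccl6, Ccl8, Ccl9, Cx3cl1, Cx3cr1, Cxcl1 and Cxcl16, 7 in all, were at least 2-fold higher under the deposited scaling and under all 8 alternatives. Ccl12 was under the limit with loess (0.74) and with the floor at the 60th percentile (0.71), and Cxcr4 with that floor (0.70). Ccl2, Ccl5, Ccr1 and Cxcl2 passed it with the floor at the 40th percentile (1.44, 1.06, 1.39 and 1.14). Cxcl14 passed it with the median over probe sets (1.14) or without probe sets whose identifier carries a letter suffix (1.94). With no floor, 22 of the 48 members were higher and 2 lower, and 0 could count as near background. Over all 18193 genes, 2105 (11.6%) were then higher and 1691 lower. With the floor at the 60th percentile, 34 of the 48 members were near background, while 10436 of all 18193 genes were measured. The median over the members measured at that floor was 0.99. With each array centred on its median, 47.5% of the genes past 2-fold were higher ones, in place of 65.1%, the median log2 ratio of all genes moved from 0.09 to -0.07, and the same 9 members were higher. With loess the higher share was 58.0% and with quantile normalization 55.9%. The cause of these moves, beyond the floor that sets each bound, was not tested. No paired analysis was possible because each group has 1 array. For the 11 members measured on the cystic array alone, the floor of the control array sets the ratio, which is a bound.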

Other observations

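Further chemokine genes were read by probe sets that name several near-identical copies, and these stayed outside the gene counts. The probe set for Ccl21 and its copies, which guide cells that carry Ccr7 into lymphoid tissue, had a signal of 248.9 on the cystic array, against 168.3 on the control array (log2 ratio 0.56). The probe set for Ccl19 and its copies, which act through the same receptor, had 92.6 on the cystic array, against 59.5 on the control array (0.64), while Ccr7 itself was near background. Those for Ccl27 and its copies had 120.1 and 98.2 on the cystic array, against 144.5 and 99.5 on the control array (-0.27 and -0.02), and the probe set of Ccl27a alone had 144.8 on the cystic array, against 136.3 on the control array (0.09). None of these probe sets reached 2-fold.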
